A study of Mus musculus with 24 samples.

Results

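The endothelin system was followed through 5 genes in cultured mouse periosteal cells: the ligand genes Edn1 and Edn3, the processing enzyme gene Ece1 and the receptor genes Ednra and Ednrb. The genes were taken by symbol from the 35975 lines of the RNA-seq table of YAPCA cells, where all 5 have a line, and the sites of changed open chromatin near their starts were added. The set was chosen by the RNA values themselves, for the higher Edn1 and lower Ednra of Dox-treated YAPCA cells, so the RNA values of that contrast are given as a description, with no test.

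The YAPCA cells are primary periosteal cells that carry 3 alleles. The first, B6.C-tg(CMV-Cre)1Cgn/J, is a Cre driven by the broadly active CMV promoter. Another, Gt(ROSA)26Sortm1(rtTA,EGFP)Nagy/J, places the doxycycline-dependent activator rtTA and EGFP at the ROSA26 locus. The last is tetO-YAPS127A, a Dox-driven form of YAP that lacks a main phosphorylation site of the Hippo kinases and is therefore called constitutively active. YAP is a transcriptional co-activator that works through TEAD factors. YAPCA cells given 1 µM doxycycline (Dox) were set against untreated YAPCA cells that carry the same alleles, and wild-type C57BL6 cells given 1 µM Dox were set against untreated wild-type cells. Dox was dissolved in water and no vehicle was given. Each kind of cell was profiled by RNA-seq and by ATAC-seq, an assay of open chromatin, which makes 24 samples in 8 groups of 3. Samples within a group are labelled as technical replicates, so SEs and p-values measure only the spread between these samples.

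Endothelins are short secreted peptides, first known as constrictors of blood vessels. Each is cut from a longer precursor, first by proprotein convertases such as furin and then by an endothelin-converting enzyme, and acts on the G protein-coupled receptors ETA, encoded by Ednra, and ETB, encoded by Ednrb. ETA prefers endothelin-1 over endothelin-3, while ETB binds all endothelins alike and also clears endothelin-1. In the embryo, endothelin-1 acting on ETA sets the identity of the lower jaw, and endothelin-3 acting on ETB is needed by melanocyte and enteric nerve precursors. In bone, endothelin-1 is known as a signal to osteoblasts.

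The YAPCA RNA libraries held 20771096 to 27482996 reads with Dox and 16351891 to 28734643 reads without. Yap1 was at 4798 ± 86.3 and 5041 ± 94.7 normalised read counts with Dox and without (SD, n = 3 each; limma, adjusted p = 0.0697), and it is not given here whether transgene reads count under Yap1. Of 8 YAP/TEAD target genes, 8 rose and 0 fell, with a median log2 change of 0.54 (limma with Benjamini-Hochberg adjustment, adjusted p below 0.05). Of the 13477 genes tested, 27.9% passed in either direction and 14.3% rose. The target list was chosen with earlier results of these data known, so its count is a description and not a check. Markers named for periosteal and mesenchymal cells were abundant apart from Nt5e, at 37.6 to 55.9 normalised read counts. The summed level of the 10, mostly Col1a1 and Col1a2, was 459425 to 471330 with Dox and 576282 to 597500 without. Of the 10, 0 rose and 7 fell, where 14.3% of all genes tested rose and 13.5% fell.

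Edn1, the gene of preproendothelin-1, was higher with Dox. It had 261, 257 and 227 normalised read counts in the Dox libraries, against 107, 112 and 106 in the untreated libraries, from 309, 258 and 202 reads against 134, 121 and 75. All 3 Dox libraries thus lay above all 3 untreated ones, and Dox replicate 3 was the lowest of its group. The means were 249 ± 18.6 with Dox and 108 ± 3.37 without (SD, n = 3 each), a ratio of 2.30 and a log2 change of 1.19 ± 0.099 (SE) on the scale log2(normalised read count + 1). Of the 13477 genes tested, 0.178% had a log2 change at least as high, where the median of all was 0.0007. Edn1 was picked for this rise, so nothing is read from its place among all genes. In bulk cells such as these, fewer cells of a type and less RNA per cell cannot be told apart.

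Endothelial cells are the classical source of endothelin-1, and their markers ranged from 0 to low levels in these cultures. Cldn5 had 0 reads in every library, Pecam1 at most 6.76, Tie1 at most 0.998 and Cdh5 at most 16.7 normalised read counts. Tek, an angiopoietin receptor gene, had 52.4, 32.9 and 63.0 normalised read counts with Dox, against 26.4, 39.8 and 26.7 without. Kdr reached at most 40.5 and Egfl7 lay between 68.4 and 99.9 over all libraries. The summed level of the 10 endothelial markers was 167 to 217 with Dox and 169 to 182 without. Of the 5 tested, 0 rose and 0 fell (limma), where 14.3% of all genes tested rose and 13.5% fell. The part of endothelial cells in the Edn1 values was not tested.

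Edn3, the gene of the ligand that acts mainly on ETB, had 0 reads in all 6 libraries. A count of 0 over a group allows up to 3 reads in the sum of a group, where the libraries held 71521623 reads with Dox and 69944890 without. This limit covers counting error only. Edn3 could not enter the test, which leaves 4 of the 5 genes with a log2 change.

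Ednra, the gene of the ETA receptor, was lower with Dox. It had 63.4, 60.9 and 48.3 normalised read counts in the Dox libraries, against 150, 148 and 139 in the untreated libraries, from 75, 61 and 43 reads against 187, 160 and 99. Every Dox library lay below every untreated one, and the highest Dox value was 0.455 of the lowest untreated value. The means were 57.5 ± 8.05 with Dox and 146 ± 5.54 without (SD, n = 3 each), so Dox cells held 39.5% of the untreated level, a log2 change of -1.33 ± 0.14 (SE). A log2 change at least as low was found for 0.119% of the genes tested. Ednra was picked for this fall, so nothing is read from that share. In Dox replicate 3 both Edn1 and Ednra were at their lowest of the group.

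Ednrb, the gene of the ETB receptor, was barely detected with Dox. It had 4.22, 2.99 and 4.5 normalised read counts in the Dox libraries, against 18.4, 22.2 and 12.7 in the untreated libraries. These values rest on 5, 3 and 4 reads with Dox and on 23, 24 and 9 reads without, and the groups did not overlap. The means were 3.91 ± 0.801 with Dox and 17.8 ± 4.81 without (SD, n = 3 each), which is 22.0% of the untreated level. The log2 change was -1.92 ± 0.37 (SE). Its size depends on how low counts are handled, as a pseudocount of 5 in place of 1 gave -1.34. Ednrb passed the filter, 10 normalised read counts or more on average over the 6 libraries, only through its untreated level, at 10.8. It fell below the filter without untreated replicate 1 or untreated replicate 2.

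Cells known for ETB include melanocytes and Schwann cells, and markers of both ranged from near 0 to moderate levels. Sox10 had at most 0.998, Dct at most 2.40, Tyr at most 1.12 and Mlana at most 0.926 normalised read counts in any library, while Mbp lay between 33.8 and 51.9 and S100b between 19.1 and 35.2. The summed level of the 10 markers was 280 to 296 with Dox and 340 to 358 without, without overlap. Among all genes tested, 41% had groups without overlap. Of the 5 markers tested, 0 rose and 1 fell, where 14.3% of all genes tested rose and 13.5% fell. The marker that fell was Mitf, a transcription factor of pigment cells and osteoclasts, with 169 to 181 normalised read counts with Dox and 224 to 255 without. Mitf makes up most of that sum. Its part in the Ednrb values was not tested.

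Smooth muscle cells and pericytes are known for ETA. Some of their genes were abundant in these cultures, with Acta2 between 114681 and 123699 and the more restricted Myh11 between 519 and 752 normalised read counts. Cnn1 lay between 8828 and 10194, Cspg4 between 796 and 1067 and Mcam between 322 and 406. Others had low counts, with Tagln between 13.5 and 19.7, Rgs5 between 13.9 and 26.4 and Des between 20.2 and 48.1. Kcnj8 and Abcc9, at most 8.80 and 7.04, were the 2 of the 10 with means under 10. The summed level of the 10 smooth muscle and pericyte markers was 125618 to 130337 with Dox and 131362 to 136200 without, and of the 8 tested 0 rose and 3 fell, where 13.5% of all genes tested fell. Acta2, which makes up most of that sum, overlapped between the groups. The part of these markers in the Ednra values was not tested. Macrophage markers summed to 422 to 424 with Dox and 400 to 460 without. C1qa and Fcgr1 were at 0 in every library, and 6 of the 10 had means under 10. The 4 others were Csf1r at 182 to 222, Cd14 at 90.8 to 120, Lyz2 at 58.3 to 84.8 and Cd68 at 37.0 to 53.2. Of these 4, 0 rose and 0 fell (limma), where 14.3% of all genes tested rose and 13.5% fell.

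Ece1, which encodes the main enzyme that releases active endothelin-1 from its intermediate, did not separate the groups. It had 5640, 5481 and 5657 normalised read counts in the Dox libraries, against 5607, 5568 and 5515 in the untreated libraries. The groups overlapped, with Dox replicate 2 below all untreated libraries. The means were 5593 ± 96.8 with Dox and 5563 ± 46.3 without (SD, n = 3 each), a log2 change of 0.01 ± 0.026 (SE), and 48.1% of the genes tested had a change at least as high. Ece1 rests on 3919 to 7011 reads a library, many more than the receptors, and its value is the most precise of the set.

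Of the 4 genes with a log2 change, 3 had groups without overlap, where 41% of all genes tested had none; since the set was picked for these values, nothing is read from that share. In the authors' deposited table, made with DESeq2, the log2 fold changes were 1.2 for Edn1, -1.33 for Ednra, -2.20 for Ednrb and 0.007 for Ece1. The authors' deposited table gives lfcSE values of 0.148, 0.196, 0.645 and 0.032 for the same genes in that order. The authors' deposited table holds no adjusted p for Ednrb. RefSeq places 3 long non-coding RNA genes over Ednra and 1 over Ednrb, and their lines reached at most 2.25 normalised read counts in any library over Ednra and 0 over Ednrb. The sources used here do not say whether reads were counted by strand.

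**Figure D1:**
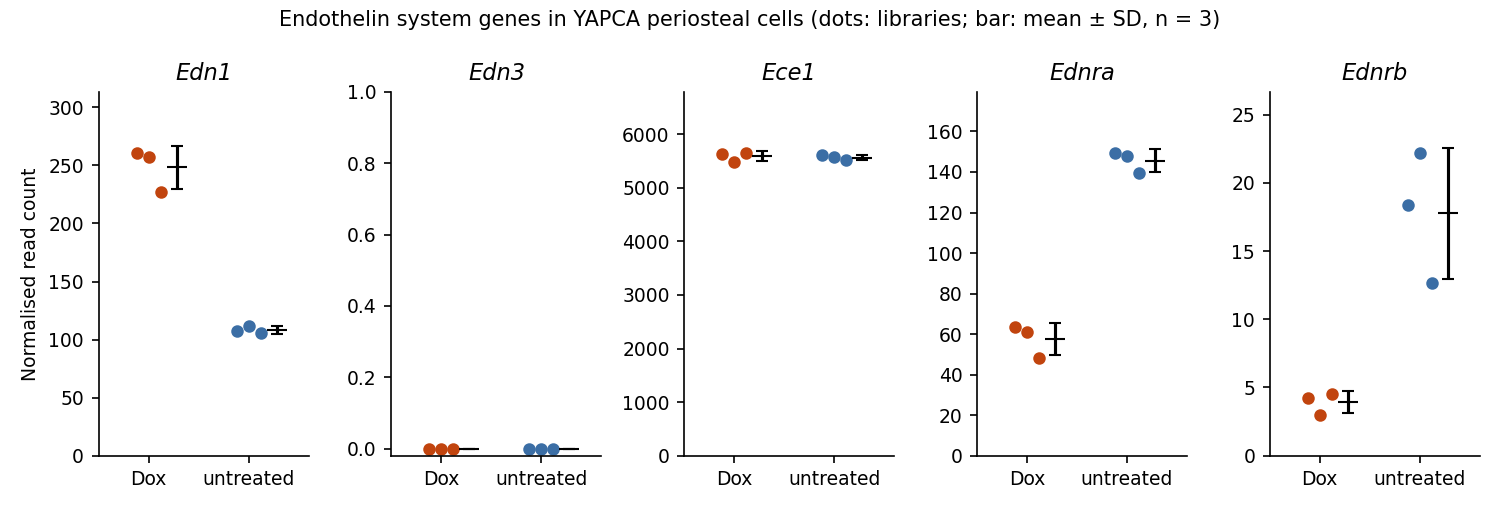
Normalised read counts (y axis, a scale per gene) of Edn1, Edn3, Ece1, Ednra and Ednrb in the 3 Dox (left, orange) and 3 untreated (right, blue) YAPCA RNA libraries. Dots are libraries and bars the mean ± SD; Edn1 lies at 227 to 261 with Dox and 106 to 112 without, Ednra at 48.3 to 63.4 with Dox and 139 to 150 without, and Ece1 overlaps.

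Open chromatin was read from the list of 30509 sites that differ between Dox and untreated YAPCA cells in the authors' deposited table, 87.2% of them gained with Dox. Values are the authors' log2 concentrations, which give the read level of a site as a mean per group, and their log2 fold, Dox minus untreated. The depth behind them is unknown, and values per sample are not used here. Within 100 kb of the annotated starts of the 5 genes the authors' deposited table holds 20 sites, 18 gained and 2 lost. At 90% gained, the share is near that of all listed sites, but the sites fell unevenly on the genes.

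Edn1 lies on chromosome 13 at chr13:42301476-42307990 on the plus strand (GRCm38, the build called mm10 in the submitters' processing notes). Within 100 kb of its start the authors' deposited table holds 9 gained sites and 0 lost ones. Gained sites lie that near to 76.2% of the 26794 genes with an annotated start, but 9 or more do so for 3.46%, a threshold set after the count of Edn1 was seen. The 9 sites all have Edn1 as their nearest start, and 0 other protein-coding genes are annotated within 100 kb. In the authors' deposited table the log2 folds of the 9 run from 0.38 to 0.88 with a median of 0.71, against a median of 0.56 over all gained sites.

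One of these sites covers the start of Edn1, at chr13:42301164-42301771. In the authors' deposited table its log2 concentration was 9.8 with Dox and 9.09 without, a log2 fold of 0.71 with FDR = 4.53e-17. A gained site over a start is found for 4.08% of genes, and 29.5% of listed sites have a log2 fold as high as this one. Edn1 was picked for its higher RNA, so nothing is read from the share of genes. The 250 bases before the Edn1 start lie wholly inside the site, and are shown because the site over them opened and TEAD factors, through which YAP works, have a known motif that can be searched for. The sequence runs 5′ to 3′ on the plus strand at chr13:42301226-42301475, from the RefSeq annotation of GRCm38.p6, and the capitals mark the reverse complement of the TEAD motif GGAATG.
Edn1: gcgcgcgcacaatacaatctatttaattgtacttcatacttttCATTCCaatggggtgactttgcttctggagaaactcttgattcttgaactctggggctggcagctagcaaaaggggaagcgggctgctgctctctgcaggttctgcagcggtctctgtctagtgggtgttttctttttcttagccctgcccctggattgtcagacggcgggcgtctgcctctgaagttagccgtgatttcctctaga
The match CATTCC lies 207 to 202 bases before the start. In windows from 250 bases before to 50 bases after a start, GGAATG on either strand occurs in 14.7% of the 32851 windows of the annotation and in 1 of the 8 windows of the 5 genes. The GATA motif AGATAA, on either strand, occurs in 11.2% of windows and in 1 of these 8, that of Edn1, as TTATCT 8 to 13 bases after the first transcribed base. The AP-1 motif TGANTCA occurs in 7.81% of windows and in 0 of the 8. A match is a run of letters and not a measured binding site.

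The other Edn1 sites lie on both sides of the gene. The site at chr13:42351577-42352027, 50.3 kb downstream, had log2 concentrations of 9.34 with Dox and 8.46 without in the authors' deposited table, a log2 fold of 0.88 with FDR = 1.66e-16. The strongest site of the 9 by level, at chr13:42328397-42329121 and 27.3 kb downstream, had 10.35 with Dox and 9.94 without in the authors' deposited table (log2 fold 0.41, FDR = 8.06e-08). Both are thus open without Dox and more so with it. Weaker sites in the authors' deposited table were those at chr13:42310475-42310786, 9.15 kb downstream, with 7.11 and 6.26 with Dox and without (log2 fold 0.85, FDR = 0.000398), and at chr13:42255132-42255483, 46.2 kb upstream, with 6.99 and 6.24 (log2 fold 0.75, FDR = 0.00145). The remaining 4 had FDR values between 0.00162 and 0.00658 in the authors' deposited table. Just beyond the window, 101.9 and 102.4 kb downstream and next to the start of the predicted gene Gm32833, the authors' deposited table has 2 lost sites with log2 folds of -0.50 and -1.01.

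Ednra lies on the minus strand at chr8:77663029-77724452. Within 100 kb of its start the authors' deposited table holds 2 gained and 2 lost sites. Lost sites lie within 100 kb for 33.5% of genes, but a lost site over the start, which Ednra has, is found for 0.392%. Ednra was picked for its lower RNA, so nothing is read from these shares. The start site at chr8:77723653-77724637 had log2 concentrations of 9.14 with Dox and 9.36 without in the authors' deposited table, a log2 fold of -0.23 with FDR = 0.033. This is a small change, against a median of -0.53 over all lost sites, and its FDR is near the limit of 0.05 of the list. The region is also covered by a long non-coding RNA gene, LOC108167319.

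The other lost site, at chr8:77774661-77775266 and 50.5 kb upstream, had 8.79 with Dox and 9.1 without in the authors' deposited table (log2 fold -0.30, FDR = 0.00698). The gained sites had lower read levels than the lost ones, but log2 folds of larger size. The site at chr8:77764307-77764610, 40.0 kb upstream, had 7.9 with Dox and 7.36 without in the authors' deposited table (log2 fold 0.54, FDR = 0.00272). The site inside the gene at chr8:77684346-77684703 had 7.7 with Dox and 7.24 without in the authors' deposited table (log2 fold 0.46, FDR = 0.0141). The changes near Ednra thus went both ways.

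For comparison with Edn1, the 250 bases before the Ednra start are shown, 185 of which lie inside the lost site. They run 5′ to 3′ on the minus strand at chr8:77724453-77724702, from the same annotation, and hold no match to the 3 motifs, so there are no capitals.
Ednra: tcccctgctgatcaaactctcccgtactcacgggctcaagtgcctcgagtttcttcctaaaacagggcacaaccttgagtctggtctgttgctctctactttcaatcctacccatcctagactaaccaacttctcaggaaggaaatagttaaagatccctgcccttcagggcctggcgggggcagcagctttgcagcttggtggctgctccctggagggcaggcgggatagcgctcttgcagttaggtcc
No match says only that these letters are not in this window.

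Ednrb, at chr14:103814615-103844508 on the minus strand, has 2 gained and 0 lost sites within 100 kb, and neither is over its start. The site inside the gene at chr14:103815609-103815943 had log2 concentrations of 6.72 with Dox and 6.16 without in the authors' deposited table (log2 fold 0.56, FDR = 0.0187). The site at chr14:103918793-103919085, 75.2 kb upstream, had 6.7 with Dox and 6.16 without in the authors' deposited table (log2 fold 0.54, FDR = 0.0393). Both sites have low read levels and were gained, while the RNA of Ednrb was lower with Dox.

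Ece1, at chr4:137862237-137965229 on the plus strand with 4 annotated starts, has 5 gained and 0 lost sites within 100 kb, and 20.1% of genes have as many gained ones. The site with the smallest FDR lies 90.9 kb upstream at chr4:137771091-137771655, inside Alpl, the gene of the bone alkaline phosphatase, and its nearest start is that of Alpl. It had 8.2 with Dox and 7.59 without in the authors' deposited table (log2 fold 0.61, FDR = 1.11e-05). The other 4 lie inside Ece1 and had log2 folds of 0.20 to 0.49 with FDR values of 0.0231 to 0.041 in the authors' deposited table. None covers a start, and the RNA of Ece1 overlapped between the groups. Edn3, at chr2:174760619-174784042, has no listed site within 100 kb, as have 20.5% of genes.

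**Figure D2:**
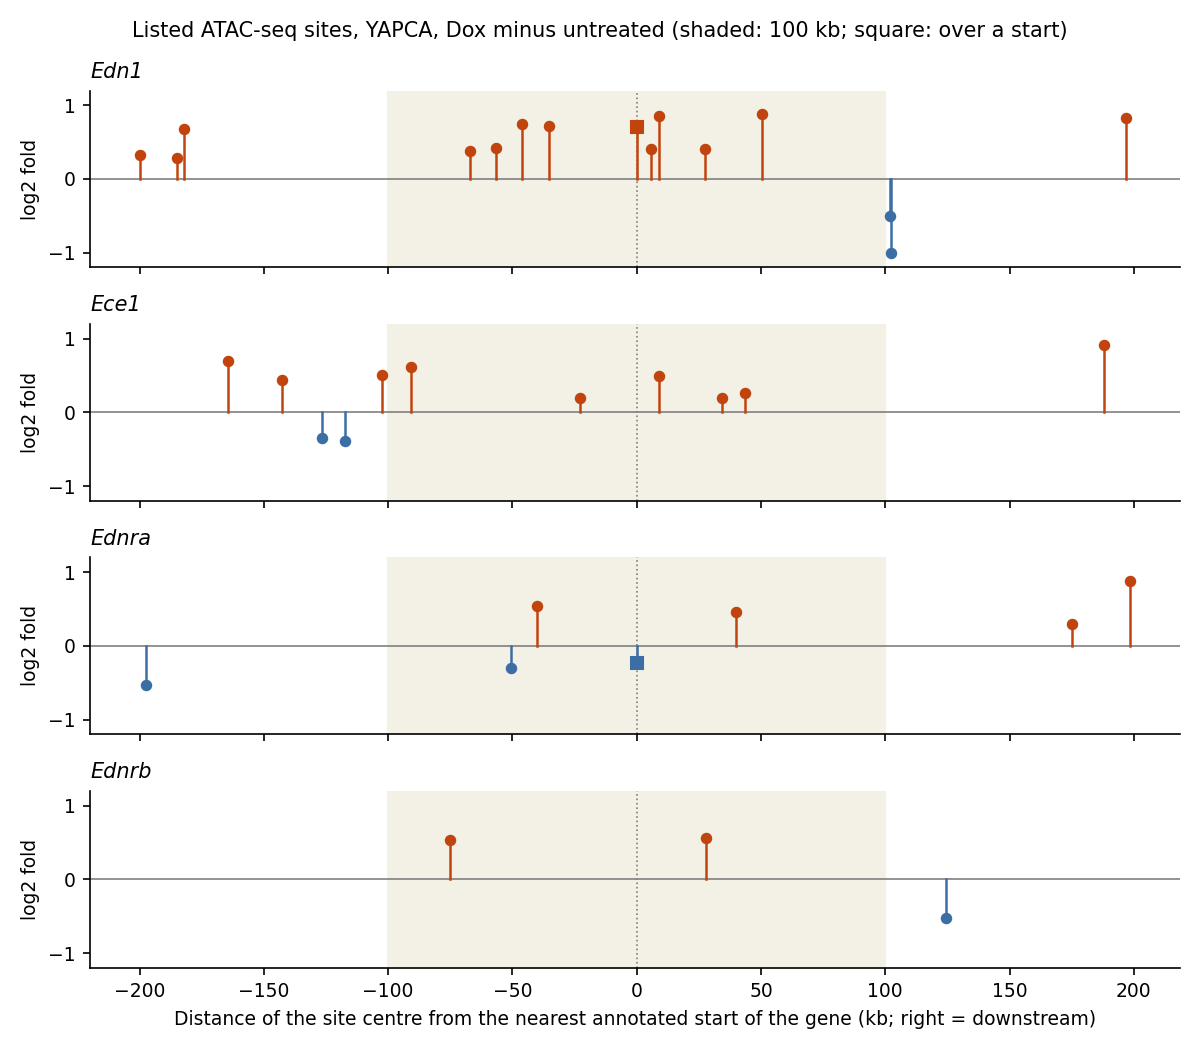
Log2 fold of each listed ATAC-seq site (y axis, Dox minus untreated YAPCA cells, the authors' values) against its distance in kb from the nearest annotated start (x axis, downstream to the right) for Edn1, Ece1, Ednra and Ednrb, with gained sites in orange, lost sites in blue and squares over a start. Within the shaded 100 kb, Edn1 has 9 gained and 0 lost sites and Ednra 2 gained and 2 lost, one of them over its start.

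**Figure D3:**
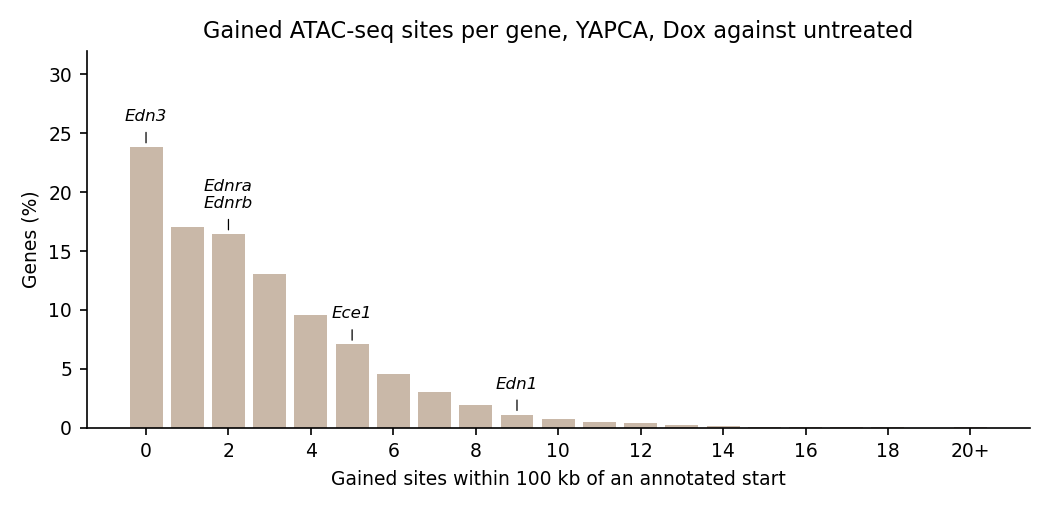
Share of the 26794 genes with an annotated start (y axis, percent) by their number of gained sites within 100 kb (x axis), with the 5 endothelin system genes marked. Edn1 has 9 gained sites, Ece1 5, Ednra and Ednrb 2 each and Edn3 0.

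Of 10 other genes that make, cut or clear endothelins, 7 were tested, of which 0 rose, 1 fell and 6 missed the threshold (limma, adjusted over all genes tested), where 14.3% of all genes tested rose and 13.5% fell. The share that fell is near that of all genes. The median log2 change of the 7 was -0.03. The gene that fell was Furin, which encodes the first cutting enzyme, with 4086 ± 142 normalised read counts with Dox and 4386 ± 83.0 without (SD, n = 3 each), a log2 change of -0.10 ± 0.031 (SE; limma, adjusted p = 0.0219). That call was lost without Dox replicate 3, untreated replicate 1 or untreated replicate 2. Ece2, another endothelin-converting enzyme gene, had 883 ± 7.07 normalised read counts with Dox and 834 ± 18.5 without and did not pass (limma, adjusted p = 0.184). Edn2, the remaining endothelin gene, was below the filter at 0.896 ± 0.849 with Dox and 2.36 ± 0.483 without. Mme, which encodes neprilysin, an enzyme that degrades endothelin-1, had 53.2 ± 8.86 with Dox and 54.9 ± 4.38 without, and Kel had 0 reads in every library.

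Of 27 genes for the G proteins, phospholipases, calcium channels, kinases, RGS proteins and arrestins that endothelin receptors are known to use, 26 were tested, of which 7 rose, 8 fell and 11 missed the threshold (limma), against 14.3% rising and 13.5% falling among all genes tested. The median log2 change was -0.04. Rgs16, whose product speeds the switching-off of Gi and Gq proteins, had 4442 ± 277 normalised read counts with Dox and 2410 ± 243 without (SD, n = 3 each), a log2 change of 0.89 ± 0.058 (SE; limma, adjusted p = 1.45e-08). Gnai1, a Gi alpha subunit, rose by a log2 change of 0.48 ± 0.075 (limma, adjusted p = 0.000158), and Gnaq, the alpha subunit that couples ETA to phospholipase C, by 0.21 ± 0.034 (limma, adjusted p = 0.000209). Arrb1, a beta-arrestin that binds activated receptors, fell to 940 ± 3.01 with Dox, against 1137 ± 8.26 without, a log2 change of -0.27 ± 0.040 (limma, adjusted p = 7.28e-05). The list thus moved both ways, over a range of log2 changes from -0.39 to 0.89.

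Among 10 jaw patterning genes that act downstream of Ednra in the mouse embryo, 5 were tested, of which 0 rose, 2 fell and 3 missed the threshold (limma), where 13.5% of all genes tested fell. Dlx3, a homeobox gene of the lower jaw and of bone-forming cells, fell to 21.2 ± 5.01 normalised read counts with Dox, against 43.8 ± 8.56 without (SD, n = 3 each), a log2 change of -1.02 ± 0.23 (SE; limma, adjusted p = 0.00372). Gsc, goosecoid, fell to 61.7 ± 4.03 with Dox, against 87.9 ± 5.86 without (log2 change -0.50 ± 0.14; limma, adjusted p = 0.0133), and lost its call without untreated replicate 2. The median log2 change of the 5 tested was -0.26, and the other 5 genes had means under 10 normalised read counts and were not tested.

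Of 23 genes of other vasoactive peptide systems, 12 were tested, of which 4 rose, 1 fell and 7 missed the threshold (limma), where 14.3% of all genes tested rose and 13.5% fell. The median log2 change was -0.19. Adm, the gene of the vasodilator adrenomedullin, had 3063 ± 88.0 normalised read counts with Dox and 1820 ± 43.0 without (SD, n = 3 each), a log2 change of 0.75 ± 0.034 (SE; limma, adjusted p = 2.35e-10). Npr3, the clearance receptor of natriuretic peptides, had 4364 ± 247 with Dox and 2812 ± 118 without (log2 change 0.63 ± 0.040; limma, adjusted p = 1.01e-08), and Nppb, the gene of brain natriuretic peptide, 45.8 ± 9.70 with Dox and 19.9 ± 1.55 without (1.14 ± 0.22; limma, adjusted p = 0.00104). Avpr1a, a vasopressin receptor gene, rose by a log2 change of 0.37 ± 0.096 (limma, adjusted p = 0.00935). The gene that fell was Bdkrb1, a bradykinin receptor gene, chosen for naming after its value was seen, with a log2 change of -0.91 ± 0.30 (limma, adjusted p = 0.0354). Bdkrb1 had 11.3 ± 4.0 with Dox and 21.4 ± 2.30 without, and its call was lost in 5 of the 6 fits that left out a library.

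**Figure D4:**
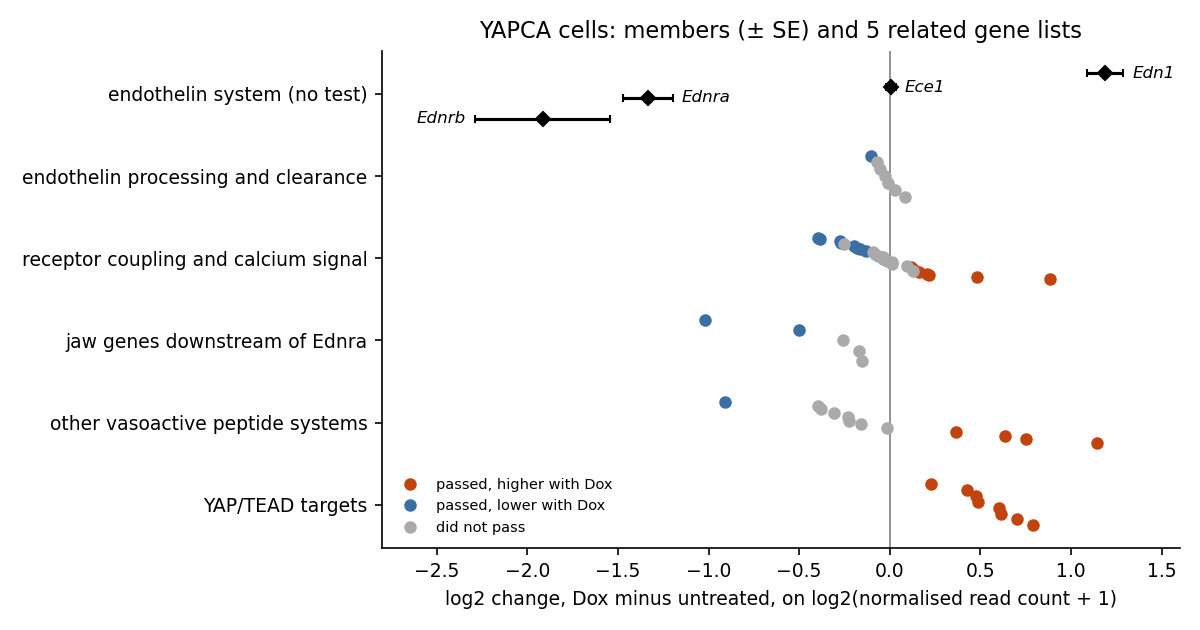
Log2 change, Dox minus untreated YAPCA cells (x axis), of Edn1, Ece1, Ednra and Ednrb (diamonds with SE, no test) and of the tested genes of 5 lists (dots; orange passed and higher with Dox, blue passed and lower, grey did not pass). Edn1 lies at 1.19, Ednra at -1.33 and Ednrb at -1.92, while the genes of processing and clearance run from -0.10 to 0.08.

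Likeness to a gene was measured over the 6 YAPCA RNA libraries as the Euclidean distance between log2 values centred on the mean of each gene, among the 10238 genes averaging 100 normalised read counts or more. Among the nearest to Edn1 were Mtmr10, of the myotubularin phosphatase family, at a distance of 0.206 and Spry1, which dampens signals of receptor tyrosine kinases, at 0.219. Their log2 changes of 1.05 and 1.27 lie on both sides of that of Edn1. Nearest to Ednra were Egr3, an immediate-early transcription factor gene, at 0.420, Crocc2 at 0.438 and Ddit4, a stress-induced inhibitor of mTORC1, at 0.483. Their log2 changes were -1.02, -1.22 and -1.49. The 6 libraries form 2 groups, so such likeness is mostly that of the change with Dox.

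The authors also scored gene sets in each RNA library, among them PID_ENDOTHELIN_PATHWAY and WP_ENDOTHELIN_PATHWAYS. In YAPCA cells PID_ENDOTHELIN_PATHWAY scored -0.0091, -0.0040 and -0.207 in the Dox libraries, against -0.0701, 0.217 and 0.106 in the untreated libraries of the authors' deposited table. The groups overlapped, and the authors' deposited table gives a difference of -0.157 with a p = 0.28 and FDR = 0.55, where 12.8% of the 4320 YAPCA sets had an FDR below 0.05. WP_ENDOTHELIN_PATHWAYS scored 0.0795, -0.107 and -0.0097 with Dox, against 0.172, 0.107 and -0.0457 without, a difference of -0.0902 in the authors' deposited table (p = 0.679, FDR = 0.852). Without a single library, the difference was -0.234 to -0.0906 for PID_ENDOTHELIN_PATHWAY, smallest in size without Dox replicate 3 (-0.0906) or untreated replicate 2 (-0.0911). It was -0.152 to -0.043 for WP_ENDOTHELIN_PATHWAYS, smallest in size without Dox replicate 2 (-0.043) or untreated replicate 1 (-0.0432) and largest without untreated replicate 3 (-0.152) or Dox replicate 1 (-0.136). The movement of Edn1, Ednra and Ednrb thus stands beside scores of both sets whose groups overlap.

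In wild-type cells the same sets were scored in a separate table. PID_ENDOTHELIN_PATHWAY scored -0.0561, 0.0472 and 0.0135 with Dox, against 0.177, -0.110 and 0.0086 without, a difference of -0.0236 in the authors' deposited table (p = 0.842, FDR = 0.944). That difference ran from -0.0912 without untreated replicate 2 to 0.0523 without untreated replicate 1, and its sign also turned without Dox replicate 1 (0.0052). WP_ENDOTHELIN_PATHWAYS scored 0.273, 0.231 and -0.0059 with Dox, against 0.0276, -0.142 and 0.0011 without, a difference of 0.204 in the authors' deposited table (p = 0.277, FDR = 0.578). Groups overlapped for both sets, and 12.1% of the 4333 wild-type sets had an FDR below 0.05.

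**Figure D5:**
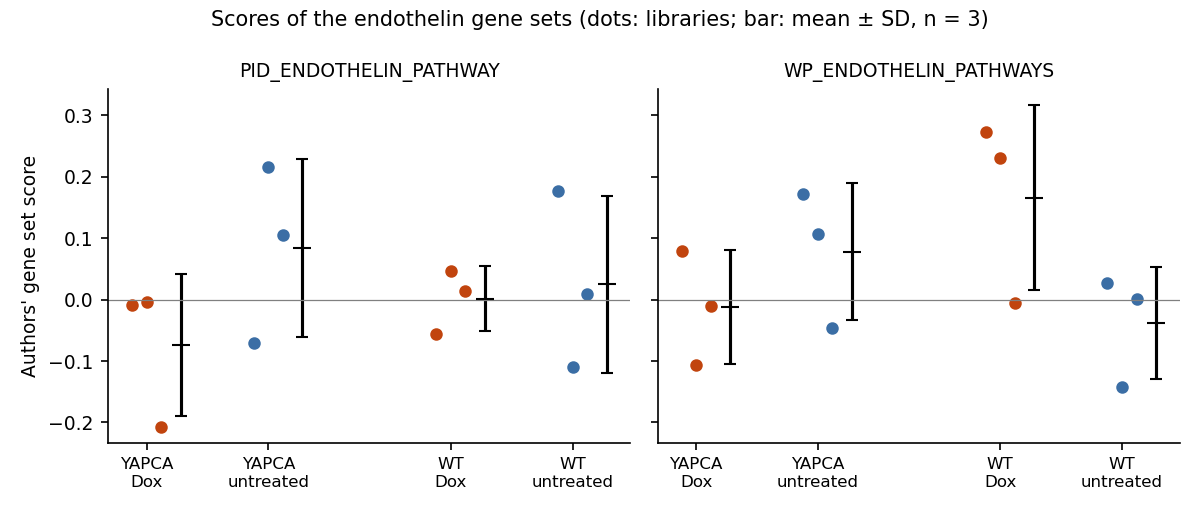
The authors' score of each of 2 endothelin gene sets (y axis, no unit) per RNA library of YAPCA and wild-type (WT) cells, Dox left of untreated. Dots are libraries and bars the mean ± SD (n = 3); the Dox and untreated libraries overlap in all 4 pairs.

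The deposited wild-type lists bear on the endothelin genes only in part. The 98 genes that the authors' deposited table lists for wild-type cells include 0 of the 5 endothelin genes. The lowest mean normalised read count among those 98 was 1970, and Ece1 alone of the 5 has a mean above it in YAPCA cells. Whether genes with lower means could enter the list is not known. The absence of Edn1, Ednra and Ednrb is therefore not read as a lack of change in wild-type cells. Of the 42 wild-type sites in the authors' deposited table, 36 gained and 6 lost, 0 lie within 200 kb of a start of the 5 genes. The nearest wild-type site lies 3.16 Mb from Ednra and 12.4 Mb from Edn1. The wild-type list is short beside the 30509 sites of YAPCA cells, and the share of all genes with a wild-type site that near was not counted. The absence of sites is therefore not read as a lack of change in wild-type open chromatin either. Whether the response of Edn1 or Ednra to Dox differs between YAPCA and wild-type cells was not tested.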

How the data were processed

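RNA-seq of YAPCA cells was used as normalised read counts (signal), which are the authors' reads per gene over a factor for each library, judging from the deposited columns. Dividing each column by its smallest step gave whole reads for 100% of values (tolerance 0.01 read). For the RNA-seq tables, the deposited log2 fold changes, standard errors and p-values are DESeq2 output, and a linear fold (ratio) stands beside them for wild-type cells, per the file headers. The site tables hold DiffBind output of the authors: log2 concentrations per group, their log2 fold, p-values and FDR, per the file headers. Wild-type sites come as other, joined text fields, per the file headers. The authors also deposited gene set scores per library, with the p-values printed beside them. Tools in the submitters' processing notes are featureCounts, HISAT2, Bowtie2, Picard, SAMtools, bedtools, MACS2, HOMER, DESeq2 and DiffBind, and the build is mm10. Versions, strand setting, the transposase shift and pooling for peak calls are not stated in the sources used here.

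Log2(normalised read count + 1) was fitted with limma 3.58.1 in R 4.3.3 (intensity trend, two-sided, Benjamini-Hochberg) over 13477 genes with a mean of at least 10, since the table held no raw counts. This scale understates changes of low genes. The script was tested on simulated data. As alternatives, pseudocounts of 0.5 and 5, no filter and a mean of at least 50, TMM scaling, edgeR 4.0.16 (quasi-likelihood) and DESeq2 1.42.0 on the recovered reads, a replicate block and leaving out each library were run. Levels were not tested between genes, as no transcript lengths were at hand. Where genes are called abundant or low, or markers are summed, the counts are not corrected for length. A table of the sites for chromosome 3 has its group headings exchanged against the main sheet, whose order was kept, and no endothelin gene lies there. Gene starts and sequences came from RefSeq (GRCm38.p6) and matched 5 of 5 genes. Sites were assigned with Python 3.11.15, taking site starts as counted from 0.

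The 5 genes and all lists were chosen with earlier results of these data known. Named are the 5 genes, up to 4 genes per list by adjusted p among those that passed, up to 5 sites per gene by FDR, and for Edn1 and Ednra the 3 most alike genes with a mean of at least 100, leaving out predicted genes. Other genes and sites are named as examples. A gene that the rule takes is not reported here. The 27 lines named by a date stayed in the fit and none is named.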

Additional observations from a re-analysis of the deposited data

How the results depend on the processing

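Of 296 values recomputed under an alternative, 34 moved by over 1.5 times (counts) or by more than the spread between replicates (other values). The sign was opposite in 3, of results whose groups overlap: Ece1 without Dox replicate 3 (-0.0009), and the wild-type difference of PID_ENDOTHELIN_PATHWAY without Dox replicate 1 (0.0052) or untreated replicate 1 (0.0523). Leaving out each library gave log2 changes of 1.15 to 1.25 for Edn1, -1.41 to -1.22 for Ednra, -2.13 to -1.77 for Ednrb and -0.0009 to 0.0219 for Ece1. Ednrb could not be fitted without untreated replicate 1 or 2 or with a mean of at least 50, and was -1.34 with a pseudocount of 5, -2.03 with 0.5, -2.20 in edgeR and -2.21 in DESeq2. Its 3 to 5 reads a library with Dox limit the size of its change. Over all genes, 1481 to 1807 rose and 1392 to 1776 fell when a library was left out, against 1931 and 1826 with all 6. DESeq2 on the recovered reads of all 6 called fewer, 1469 rising and 1374 falling. Without a single library, falling genes numbered 0 to 1 in the processing list, 1 to 2 in the jaw list and 0 to 1 in the vasoactive list. In the receptor signalling list 6 to 7 rose and 6 to 8 fell. There Plcb1, Rgs4 and Grk2 each lost the call in some of these fits, and Grk2 also in DESeq2. With a mean of at least 50 the jaw list had 1 falling gene. The vasoactive list had 0 with no filter, with a mean of at least 50 and in DESeq2, where Bdkrb1 is untested at the higher filter and has no adjusted p in DESeq2; with no filter the cause was not tested.

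The counts of sites near a gene depended on the window and threshold by construction. Gained sites near Edn1 numbered 4 at an FDR of at most 0.001 and 5 at an absolute log2 fold of at least 0.5, and 2 lost ones came in at 200 kb. Gained sites near Ednra numbered 4 at 200 kb, 0 by nearest start, 0 at the stricter FDR and 1 at the fold minimum, and lost ones 1 at 50 kb, 1 by nearest start, and 0 at the stricter FDR and at the fold minimum. Gained sites near Ednrb numbered 1 at 50 kb, 1 by nearest start and 0 at the stricter FDR, with 1 lost at 200 kb. Gained sites near Ece1 numbered 9 at 200 kb, 2 by nearest start, 1 at the stricter FDR and 1 at the fold minimum, with 2 lost at 200 kb.

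Same-numbered Dox and untreated libraries were not shown to be pairs, with correlations of their deviations of -0.0007, 0.036 and 0.085. A replicate block left the log2 changes of Edn1 at 1.19, Ednra at -1.33, Ednrb at -1.92 and Ece1 at 0.0074, and called 2258 rising and 2092 falling genes. Not every library correlated best with its own number, Dox replicate 2 doing so with untreated replicate 1 (0.051).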
